A study of Mus musculus with 3 samples.

Results

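The genes described here are 43 interferon-inducible genes, chosen by name from 7 kinds: the ISG15 system, interferon-regulated transcription factors, sensors and antiviral effectors, immunity GTPases, the Ifi200 family, the Schlafen family and antigen presentation genes, with 3 Ifi genes of less defined role beside them. All 43 had at least 1 probe on the array, 73 probes in all, and 33 of them were among the 17709 genes that could be tested, which needed a probe well above background on at least 1 array. The samples were mouse embryonic stem (ES) cells from V6.5, a line with a mixed 129 and C57BL6 background, grown on irradiated feeder cells in medium with LIF and preplated, a step that removes attached feeders, before RNA was taken. Tet1 encodes an enzyme that oxidises 5-methylcytosine in DNA. The groups were given by genotype: Tet1 knockout, with the samples KO 4 and KO 22, and Tet1 wild type, with 1 sample, each on its own Agilent array with a single dye.

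The labels do not say whether KO 4 and KO 22 are separate clones or cultures, and the design text speaks of 2 knockout mice and 1 wild type mouse, so the p-values below reflect only how far these samples spread, which can be technical variation. The wild type sample had no replicate. The labels do not name the deleted part of Tet1, so the place of its probe relative to the deletion is unknown. The probe read 214 on KO 4, 195 on KO 22 and 721 on wild type, 3.85-fold lower in the knockout samples (limma adjusted p = 0.0529). All 3 arrays lay on 1 slide scanned in 1 run, between 62.2% and 62.8% of their spots were well above background, and no spot was saturated. ES cell markers had summed levels of 251, 251 and 241 times the 75th percentile on KO 4, KO 22 and wild type, and none of the 8 passed the test. Of the 8, 5 were lower and 3 higher on both knockout arrays (against 45.5% and 38.0% of all genes tested). Knockout minus wild type on the log2 scale, Klf4, the largest part of that sum, lay at 0.40, and Pou5f1 and Esrrb lay at -0.47 each.

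As background, interferons are secreted signals that cells release on sensing foreign nucleic acid. They bind receptors that activate JAK kinases, and STAT proteins with IRF9 then enter the nucleus and switch on genes through a DNA element called ISRE, while interferon gamma acts through the GAS element. Pluripotent stem cells are known for a weak interferon response and for expressing a part of these genes without stimulation.

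Promoter sequences are shown first because they carry the elements through which these genes are known to be switched on. RefSeq windows of 300 bases, from 250 before to 50 after the start site on build GRCm38.p6, were at hand for 37 of the 43 genes, 44 windows in all since some genes have several start sites, and not for Iigp1, Ifi204, Mx1, Mx2, Usp18 and Ifi27. The 2 letter strings searched, on both strands and counting overlaps, were the core of the ISRE, that is GAAA, any 2 bases and GAAA again, and TTCNNNGAA, the GAS. The ISRE core was present in at least 1 window of 21 of the 37 genes (56.8%), against 3.99% of all 27025 genes in the table. The GAS string was found for 11 genes (29.7%), against 9.55% of all, and 6 genes had both. The median number of CG pairs in a gene's window was 6.0 for these genes and 7.0 for all. A match is a description of the letters and not a binding site. The 100 bases before the start site are printed, 5′ to 3′ on the gene's strand, for genes the results below turn on, with each ISRE core in capitals, read on either strand.
Tgtp1, chr11:48992247-48992346, minus strand: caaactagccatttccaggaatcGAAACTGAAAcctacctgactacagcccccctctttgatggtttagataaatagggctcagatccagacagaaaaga
Igtp, chr11:58199456-58199555, plus strand: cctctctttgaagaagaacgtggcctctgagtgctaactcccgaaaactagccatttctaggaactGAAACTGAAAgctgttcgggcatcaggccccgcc
Irgm1, chr11:48871421-48871520, minus strand: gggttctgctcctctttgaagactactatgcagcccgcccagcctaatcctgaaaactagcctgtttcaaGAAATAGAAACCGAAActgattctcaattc
Gbp2, chr3:142620563-142620662, plus strand: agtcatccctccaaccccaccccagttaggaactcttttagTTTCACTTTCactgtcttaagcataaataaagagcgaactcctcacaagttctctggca
Oas1a, chr5:120907526-120907625, minus strand: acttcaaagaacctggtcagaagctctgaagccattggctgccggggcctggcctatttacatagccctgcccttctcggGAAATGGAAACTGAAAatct
Oasl2, chr5:114896834-114896933, plus strand: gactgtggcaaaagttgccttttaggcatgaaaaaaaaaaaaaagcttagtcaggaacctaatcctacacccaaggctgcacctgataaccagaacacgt
Isg15, chr4:156200819-156200918, minus strand: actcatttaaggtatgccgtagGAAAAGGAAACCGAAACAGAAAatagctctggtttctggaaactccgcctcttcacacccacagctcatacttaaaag
Slfn8, chr11:83020811-83020910, minus strand: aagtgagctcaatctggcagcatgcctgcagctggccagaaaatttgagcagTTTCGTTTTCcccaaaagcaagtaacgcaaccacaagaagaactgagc
Ifi203, chr1:173942493-173942592, minus strand: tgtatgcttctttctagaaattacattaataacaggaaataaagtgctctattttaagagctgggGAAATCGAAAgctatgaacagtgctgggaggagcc

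Among the sequences printed, Tgtp1 and Igtp, both GTPase genes on chromosome 11, shared a stretch: over 33 bases ending with the ISRE core, 29 were identical, and in both the GAS string began 11 bases before the core. In Irgm1 and Oas1a 2 overlapping cores were present, and Isg15 held 3. The Oasl2 sequence held none, which says only that these letters are not in it. Of the tested genes with a window, 17 held the ISRE core and had a median log2 difference, knockout minus wild type, of -0.39, and 12 were lower on both knockout arrays (against 49.5% of all genes with the core). The 12 without it had a median of -0.28, and 7 were lower on both (against 49.2% of all genes without it). Over all tested genes with a window the medians were -0.06 with the core (404 genes) and -0.05 without it (11252 genes). Over all genes, those medians were nearly the same with and without the core.

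Levels below are the scanner software's processed intensities, which are comparable between arrays only after scaling. The 75th percentile of each array was 717.7 on KO 4, 644.9 on KO 22 and 623.7 on wild type, and each log2 difference is taken after dividing by it. Intensities of different probes are not compared with each other. Of the 33 genes tested, 20 lay below wild type on both knockout arrays (60.6%, against 45.5% of all genes tested), 5 lay above it on both (15.2%, against 38.0%), and in 8 the knockout arrays lay on different sides. The median difference was -0.35, at -0.30 on KO 4 and -0.46 on KO 22, against -0.03 over all genes. Among the 27 genes measured well above background on all 3 arrays, 17 were lower on both knockout arrays and 5 higher, with the same median of -0.35. With the filter dropped, 27 of all 43 members fell below wild type on each knockout array, while 7 rose above it. For these last 2 settings no share of all genes was counted. The unfiltered count includes spots the scanner software could not measure on any of the 3 arrays and gave a set value. Iigp1, Slfn4 and Slfn9 count as lower by such values, at -0.07, -0.04 and -0.07, and Slfn1 as higher, at 0.02. Such values show no direction.

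Most single differences were small, and few passed the test. With Benjamini-Hochberg adjustment over all genes, limma called 2 of the 33 lower, Slfn8 and Tgtp1 (6.06%, against 0.322% of all genes), and 0 higher (against 0.0339% of all genes). Slfn8 entered the test only through wild type, where it is bright, so this count rests in part on a gene that had to differ. At an unadjusted p below 0.05 limma had 15 lower (45.5%, against 15.0% of all genes) and 1 higher, Tap1 (against 13.2%). The 15 include Slfn8 and Ifi203, which passed the filter through wild type alone and so had to lie lower. The members were also chosen with earlier results of these data known, so these shares are a description. At least 2-fold lower on both knockout arrays were 5 genes, Ifi203, Oasl2, Rsad2, Slfn8 and Tgtp1 (15.2%, against 1.56% of all genes), and none was at least 2-fold higher on both (against 1.45%). Ifi203 and Slfn8 passed the filter through wild type alone, and Rsad2 was not well above background on KO 22. With a filter requiring all 3 arrays 2 genes remained, Oasl2 and Tgtp1 (against 0.799% of all genes), and with normexp background correction 1, Ifi203 (against 0.288%). The count depended on the setting, and so did the background. With an intensity trend in the variance model limma called 14 lower and 1 higher, and the same setting called 10.7% of all genes lower and 8.31% higher. Normexp called 11 lower (against 8.93% of all genes), the deposited series matrix values 5 (against 2.79%) and a filter requiring all 3 arrays 4 of 27 (against 2.51%). Quantile normalization called the same 2 genes (against 0.277%) and the mean over a gene's probes 1 (against 0.322%). With spots kept that carried an outlier flag, limma called 3 (against 0.417%). Without clustered spots, that is spots bright on 1 array alone with another such spot near them, limma called 0 of 31 (against 0.119% of all genes), and without any filter 0 of 43 (against 0%). At an unadjusted p below 0.05 limma had 15 in each of these settings (48.4% against 28.7% of all genes, and 34.9% against 21.6%).

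**Figure D1:**
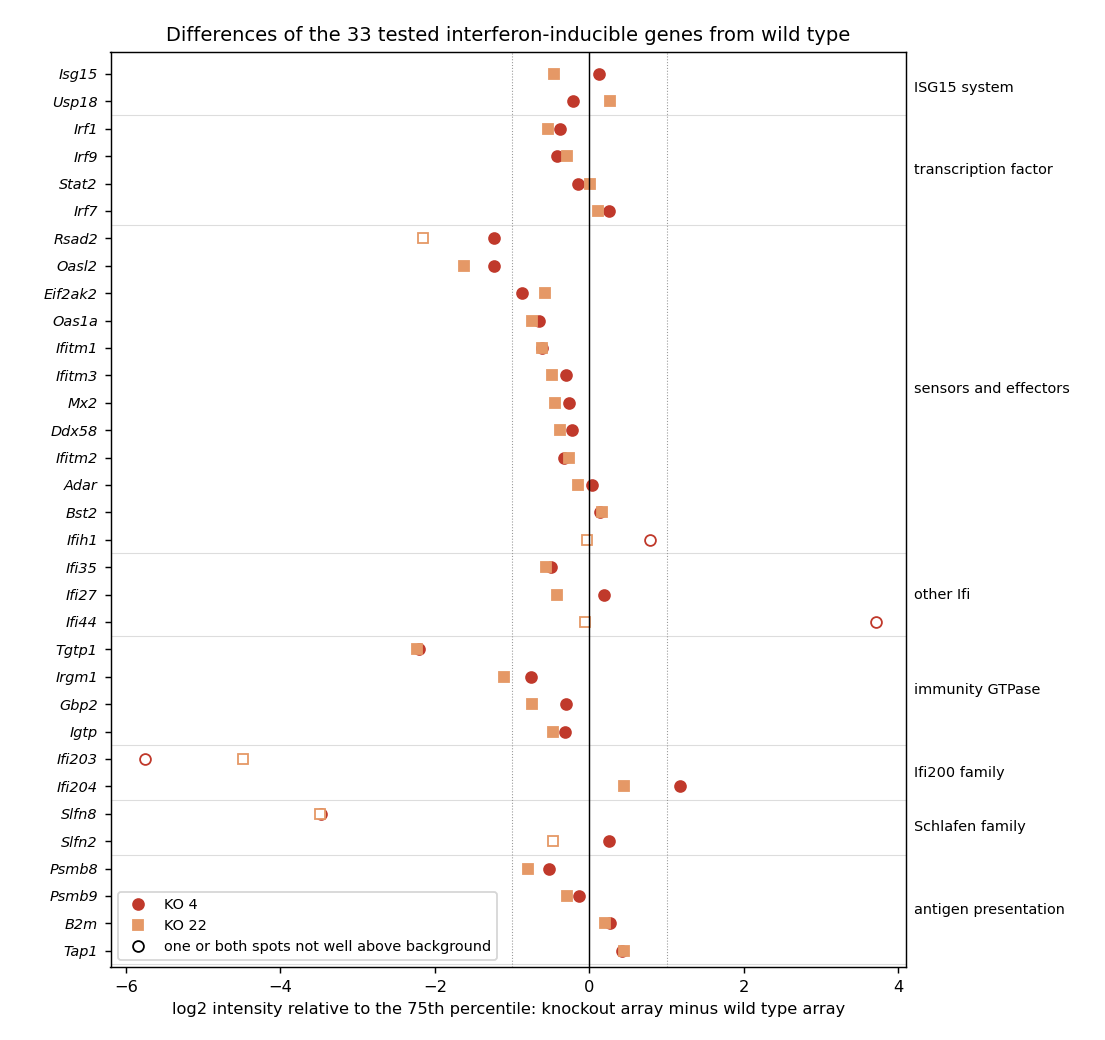
Log2 difference of each knockout array from the wild type array for the 33 interferon-inducible genes tested, grouped by role, with circles for KO 4, squares for KO 22 and open marks where a spot of the pair was not well above background. Dotted lines mark a 2-fold difference; 20 genes have both marks left of 0 and 5 have both marks right of it.

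The immunity GTPases are interferon-induced GTP-binding proteins that act on the membranes around intracellular pathogens. All 4 tested members, Tgtp1, Irgm1, Gbp2 and Igtp, were lower on both knockout arrays, with a median of -0.72, and Tgtp1 alone passed the test. Iigp1, the fifth, was not well above background on any array. Tgtp1, a T cell specific GTPase by its name, read 21.1 on KO 4, 18.5 on KO 22 and 83.9 on wild type. Both knockout spots were far below wild type and close to each other. Tgtp1 fell by 2.21 ± 0.09 on the log2 scale (SE, 2 knockout arrays against 1; limma adjusted p = 0.0426).

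The other Tgtp1 probe did not show this difference. It read 18.1 on KO 4, 15.0 on KO 22 and 15.7 on wild type, a difference of -0.05, although all its spots were well above background. The probes start 586 bases apart on mm7, the build of the array file, at chr11:48943424-48943483 for the one that fell and chr11:48942838-48942897 for the other. Both probes are listed with the same transcript, and which exons they lie in was not analysed here. Tgtp1 has a near-identical neighbour, Tgtp2, so its probes may read both copies. With the mean over both probes the difference was -1.13 and was not called (limma adjusted p = 0.0964), nor was Tgtp1 called without a filter (adjusted p = 0.170) or when clustered spots were left out (adjusted p = 0.0586). With normexp background correction it was -0.98 (adjusted p = 0.00196).

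Irgm1, a regulator of autophagy and of the other immunity GTPases, had intensities of 306 on KO 4, 217 on KO 22 and 448 on wild type. Both knockout arrays were lower, KO 22 more so, and the difference of -0.92 ± 0.19 did not pass (limma adjusted p = 0.125). Its second probe differed by -0.79. Gbp2, a guanylate-binding protein gene, stood at 943 on KO 4, 624 on KO 22 and 1006 on wild type, a difference of -0.52 ± 0.24 (limma adjusted p = 0.267). After scaling, KO 4 lay 0.30 below wild type, less than the 0.44 between the knockout arrays. The values of Igtp, which encodes Irgm3, were 660, 532 and 710 on KO 4, KO 22 and wild type, a difference of -0.39 ± 0.12 (limma adjusted p = 0.171). Psme2b, a gene lying between Irgm1 and Tgtp1 in the reference table's order, was lower on both knockout arrays, by -0.66 ± 0.09 (limma adjusted p = 0.102). It was picked after values were seen. Whether its probe also reads Psme2, a gene of similar name that could not be tested, was not examined.

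**Figure D2:**
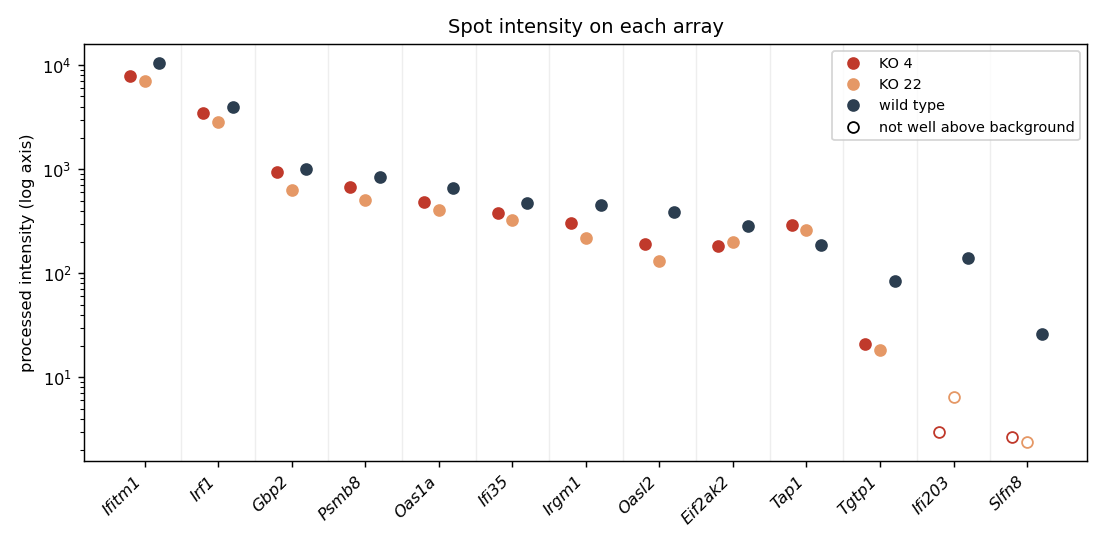
Processed intensity on a log axis for 13 genes on KO 4, KO 22 and wild type, before scaling between arrays, 1 point an array, with open points for spots not well above background. The wild type point is the highest in 12 of the 13 genes and the lowest in Tap1. That count follows from the choice of genes, made with values known and without Ifi204, which was higher on both knockout arrays. Of the 33 tested, 20 were lower and 5 higher on both. The Ifi203 and Slfn8 points of both knockout arrays are open.

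Sensors and antiviral effectors detect viral RNA or block viral entry, translation and budding. Of 16 members 12 were tested, 9 were lower on both knockout arrays and 1 was higher, with a median of -0.38, and limma called none. The 2',5'-oligoadenylate synthetase family, whose products activate RNase L, included the larger differences. Oasl2, a synthetase-like gene, read 190 on KO 4, 130 on KO 22 and 387 on wild type. Both knockout arrays were at least 2-fold lower, 2.69-fold on average, with a difference of -1.42 ± 0.21 (limma adjusted p = 0.104). Oasl2 passed with normexp, the series matrix values, a filter on all 3 arrays or an intensity trend (adjusted p from 0.00480 to 0.0457).

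Oas1a read 485, 409 and 662 on KO 4, KO 22 and wild type, a difference of -0.70 ± 0.10 (limma adjusted p = 0.102). The 7 genes of the Oas1 cluster on chromosome 5 were set beside it after its value was seen. Of these, 4 could be tested and all 4 were lower on both knockout arrays: Oas1a itself, Oas1c at -0.81, Oas1d at -0.83 and Oas1f at -0.63. Oas1b, Oas1g and Oas1h had no probe well above background. These are related genes whose probes may read more than one of them. Oasl1, the neighbour of Oasl2, differed by -0.61 ± 0.09 (limma adjusted p = 0.103).

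Rsad2 encodes viperin, which makes a chain-terminating nucleotide. Its spot read 11.9 on KO 4, 5.71 on KO 22 and 24.5 on wild type, and the KO 22 spot was not well above background. The difference was -1.70 ± 0.46 (limma adjusted p = 0.153), and the knockout arrays lay at -1.24 and -2.15, both below wild type and far apart. With normexp the difference was -0.30. Eif2ak2, the gene of the RNA-activated kinase PKR, read 181, 199 and 287 on KO 4, KO 22 and wild type, a difference of -0.72 ± 0.17 (limma adjusted p = 0.133). Both knockout arrays were below wild type, as were those of 45.5% of all genes tested.

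The Ifitm genes encode membrane proteins that block viral fusion, and Ifitm1 and Ifitm3 are also known in early germ cells. Ifitm1 read 7872 on KO 4, 7045 on KO 22 and 10487 on wild type, with both knockout arrays 0.62 below wild type after scaling (-0.62 ± 0.09; limma adjusted p = 0.102). Ifitm3 and Ifitm2 were lower on both arrays by less, with differences of -0.39 ± 0.13 and -0.30 ± 0.09 (limma adjusted p = 0.185 and 0.174). All 3 lay on the same side of wild type and none passed. Ddx58, which encodes the RNA sensor RIG-I, differed by -0.30 ± 0.11, and its other 2 probes above background gave -0.34 and -0.26. Mx2, a dynamin-like GTPase gene, read 16.7, 13.2 and 17.5, a difference of -0.36 ± 0.12.

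Other genes of this class did not follow. Adar, the RNA-editing enzyme gene, read 968 on KO 4, 758 on KO 22 and 816 on wild type, so that the knockout arrays lay on either side of wild type (-0.06 ± 0.13). Bst2, whose product tetherin holds budding virus at the cell surface, read 44059, 40199 and 34754 on KO 4, KO 22 and wild type. It lay above wild type on both knockout arrays by 0.15 ± 0.09 (limma adjusted p = 0.352). Ifih1, which encodes the RNA sensor MDA5, was well above background on KO 4 alone, at 12.8 against 6.47 on KO 22 and 6.40 on wild type. Ifit1, Ifit2, Ifit3 and Mx1, strongly interferon-induced in other cells, were not well above background on any array, so only an upper bound is known for them.

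Transcription factors of the pathway differed little. Irf1 read 3489 on KO 4, 2828 on KO 22 and 3937 on wild type, a difference of -0.45 ± 0.11 (limma adjusted p = 0.146), and its second probe gave -0.49. Irf9, the DNA-binding subunit of the complex that binds the ISRE, differed by -0.35 ± 0.11 (limma adjusted p = 0.172), and by -0.63 on its second probe. Both Irf1 and Irf9 were lower on both knockout arrays with each probe. Stat2 read 429, 432 and 415 on KO 4, KO 22 and wild type, a difference of -0.07 ± 0.12. Irf7, the inducer of interferon alpha genes, lay above wild type on both knockout arrays at a dim level (16.3, 13.3 and 11.9), by 0.18 ± 0.11.

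The ISG15 system, a ubiquitin-like modifier and the protease that removes it, showed no common direction. Isg15 read 121 on KO 4, 72.8 on KO 22 and 96.7 on wild type, so wild type lay between the knockout arrays. Its probe is placed on chromosome 17 in the array file, while the reference table places Isg15 on chromosome 4, so what it reads is less certain than for the other genes. Usp18 read 15.2, 19.2 and 15.4, with KO 4 below and KO 22 above wild type after scaling. Of the Ifi genes of less defined role, Ifi35 read 380, 328 and 468 and was lower on both knockout arrays (-0.53 ± 0.09; limma adjusted p = 0.112). Ifi27 read 168, 99.0 and 128, with wild type again in the middle, a difference of -0.12 ± 0.31. The other 3 probes taken as Ifi27 were higher on both knockout arrays, at 0.27, 0.21 and 0.36. The last 2 of these belong to Ifi27l2a by current symbol, a gene that is also in the list of other interferon-inducible genes below.

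Ifi44 was bright on KO 4 alone. Its spot read 33.1 there, 2.18 on KO 22 and 2.20 on wild type, and 1 other spot bright on KO 4 alone lay within 2 rows and columns of it. The gene's second probe was not well above background on any array. The mean difference of 1.82 ± 1.88 did not pass (limma adjusted p = 0.567) and was -0.06 without KO 4.

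The Ifi200 family encodes DNA-binding proteins with a HIN domain, several of which sense foreign DNA, from a cluster on chromosome 1. Of its 3 members 2 were tested, and they lay on opposite sides of wild type. Ifi203 read 2.99 on KO 4, 6.47 on KO 22 and 140 on wild type, with neither knockout spot well above background. A bound set at the dimmest measurable signal made it at least 14.5-fold lower in the knockout samples; the fitted difference was -5.12 ± 0.64 (limma adjusted p = 0.101), but -1.46 with normexp and -3.27 with the series matrix values. No spot bright on wild type alone lay near it, but its other 2 probes were not well above background on any array. Ifi203 passed with normexp, the series matrix values and an intensity trend.

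Ifi204 lay the other way. It read 39.4 on KO 4, 21.6 on KO 22 and 15.3 on wild type, a difference of 0.81 ± 0.37 (limma adjusted p = 0.262), and its second probe above background gave 0.39. Both knockout arrays were above wild type, with KO 4 the higher. Ifi205 could not be tested because its wild type spot carried the software's flag for an uneven spot. That spot read 930 against 26.8 on KO 4 and 17.6 on KO 22, and 2 other spots bright on wild type alone lay near it. Kept in the fit, a choice made after seeing the data, it gave -5.55 ± 0.24 (limma adjusted p = 0.0422), while its other 2 probes were not well above background on any array. The probe's listed transcripts belong to Ifi204, Ifi205 and Ifi211, so it cannot name 1 of them.

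Schlafen genes encode proteins that restrict growth or cleave transfer RNA, and the mouse members lie in a cluster on chromosome 11. Slfn1, Slfn3, Slfn4 and Slfn9 were not well above background on any array. Slfn8 read 2.67 on KO 4, 2.39 on KO 22 and 26.0 on wild type. Neither knockout spot was well above background, and both were values the scanner software sets for spots it cannot measure, so the closeness of the knockout arrays is not replication. The Slfn9 probe, whose listed transcripts belong to Slfn8 and Slfn9, did not show the wild type signal and read 2.31 there. Slfn8 was at least 2.69-fold lower in the knockout samples (fitted difference -3.49 ± 0.09; limma adjusted p = 0.0346), and the difference was -0.62 with normexp and -2.18 with the series matrix values. It lay beside 1 other spot bright on wild type alone and is not in the fit without clustered spots, and without a filter it was not called (adjusted p = 0.170). Slfn2 read 20.2 on KO 4, 11 on KO 22 and 14.8 on wild type, with wild type between the knockout arrays.

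Antigen presentation genes of the interferon response encode subunits of the immunoproteasome, the peptide transporter and the light chain of MHC class I. They split, with 2 lower and 2 higher on both knockout arrays and none called. Psmb8, an immunoproteasome catalytic subunit gene, read 672 on KO 4, 501 on KO 22 and 839 on wild type (-0.66 ± 0.16; limma adjusted p = 0.141), and its second probe gave -0.55. Psmb9, another catalytic subunit gene, was lower by less, at -0.22 ± 0.12 (limma adjusted p = 0.319). Tap1, which loads peptides into the endoplasmic reticulum, read 288, 263 and 187 on KO 4, KO 22 and wild type, a difference of 0.43 ± 0.09 (limma adjusted p = 0.124). Both knockout arrays lay above wild type by nearly the same amount. The start sites of Psmb9 and Tap1 point away from each other and lie 226 bases apart in the RefSeq table, and on both knockout arrays the pair lay on opposite sides of wild type.

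B2m, the light chain gene, had a probe printed 10 times on each array, which shows the spread within an array. That probe's spots had a median of 359 on KO 4, 339 on KO 22 and 250 on wild type, with an SD on the log2 scale of 0.17, 0.06 and 0.09. After scaling, the mean log2 level relative to the 75th percentile was -1.07 on KO 4, -0.92 on KO 22 and -1.33 on wild type. The 10 spots on KO 22 all lay above the highest wild type spot, at -1.22, while those on KO 4 reached down to -1.37 and overlapped the wild type spots. The mean difference of this probe was 0.34, that of the probe tested 0.24 ± 0.09 (1485, 1270 and 1068; limma adjusted p = 0.229) and that of the third 0.37. All 3 probes placed both knockout arrays above wild type.

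Several probes give a check within the arrays. Of the 33 genes, 11 had more than 1 probe of their current symbol well above background on all arrays. In 10 of the 11 the mean differences of all probes had the same sign, and in 8 they lay within 0.3 of each other. Tgtp1 had the same sign but the widest gap, and Ifi27 had opposite signs.

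**Figure D3:**
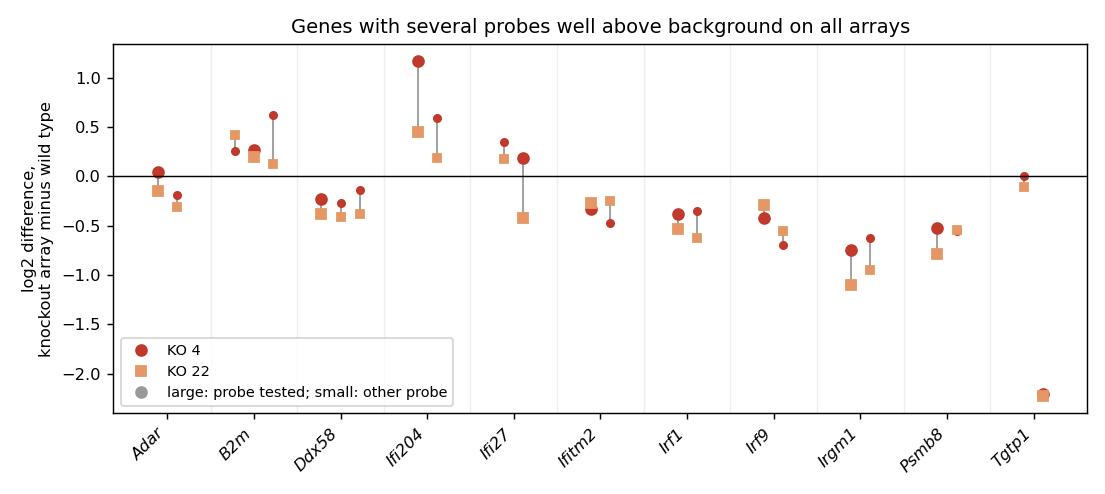
Log2 difference of each knockout array from wild type for each probe of the 11 genes with several probes well above background on all arrays, with circles for KO 4 and squares for KO 22 joined by a line. Large marks are the probe tested; the Tgtp1 probes lie at -2.21 and -0.05, while those of Irgm1 lie at -0.92 and -0.79.

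The rest of the pathway was described with 6 lists chosen with earlier results of these data known. Beside the counts of these lists and of the cell markers, 45.5% of all genes tested were lower and 38.0% higher on both knockout arrays. Limma called 0.322% of all genes lower and 0.0339% higher. Of 19 ligand genes 6 were tested and limma called 0, with 1 lower and 3 higher on both knockout arrays and a median of 0.10. Ifnb1, Ifng and 11 others were not well above background or had no probe. Ifna6, an interferon alpha gene, read 8.14 on KO 4, 12.7 on KO 22 and 31.1 on wild type, with neither knockout spot well above background. It was at least 2.83-fold lower by its bound and did not pass (limma adjusted p = 0.134). All 6 receptor genes were tested and limma called 0, with 4 higher and 2 lower on both knockout arrays. Il10rb, a receptor chain shared by interferon lambda and interleukin 10, read 296, 251 and 124 (1.01 ± 0.10; limma adjusted p = 0.0971). Ifnlr1, its lambda partner, lay lower at -0.47, Ifngr2 and Ifnar2 higher at 0.37 and 0.35, and Ifnar1, the type I receptor chain, lower at -0.17.

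Of the 15 JAK-STAT genes and inhibitors, limma called 0, with 10 lower and 5 higher on both knockout arrays and a median of -0.21. Jak2, a kinase of the interferon gamma receptor, lay higher at 0.39, and the STAT inhibitors Pias4 and Pias3 lower at -0.38 and -0.36. Of 21 nucleic acid sensors and adaptors 18 were tested and limma called 0, with 8 lower and 7 higher on both. Zbp1, a sensor of Z-form nucleic acid, read 39.7, 38.3 and 160, at -2.16 ± 0.10 just short of the threshold (limma adjusted p = 0.0544). The others named by size were Ddx41 at -0.29, Tank at 0.23 and Sting1 at -0.23.

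Another 43 interferon-inducible genes had 31 tested, of which 20 were lower and 6 higher on both knockout arrays, with a median of -0.42, and limma called 0 lower and 1 higher. The gene called was Irf2, a repressor of interferon responses, which read 17.6 on KO 4, 15.3 on KO 22 and 2.79 on wild type, where it was not well above background. It rose at least 1.54-fold (limma adjusted p = 0.0368), and it passed the filter only through the knockout arrays. Irf2 was not called with normexp (0.26; adjusted p = 0.0705), without a filter (adjusted p = 0.170) or without clustered spots (adjusted p = 0.0534). Parp14, an ADP-ribosyltransferase gene, lay at -1.03 ± 0.15 and Gbp3, a relative of Gbp2, at -0.94 ± 0.14 (limma adjusted p = 0.102 and 0.104). Herc6, an ISG15 ligase gene, was at background on both knockout arrays, at least 1.42-fold lower by its bound (limma adjusted p = 0.121), and its difference was -0.17 with normexp. Of 15 further antigen presentation genes 11 were tested and limma called 0, with 6 lower and 4 higher. Psmb10, the other immunoproteasome catalytic subunit gene, lay at -0.76 ± 0.14 and H2-K1, an MHC class I heavy chain gene, at 0.46 ± 0.09 (limma adjusted p = 0.112 and 0.121). So all 3 immunoproteasome catalytic subunits were lower on both knockout arrays, while Tap1, B2m and H2-K1 were higher on both, and none of the 6 passed. These 6 were picked, and the other genes of the list were mixed. Tap2 lay at -0.02 with the knockout arrays on different sides. Tapbp, Erap1, Calr, Canx and Psme1 were lower on both, at -0.26, -0.36, -0.39, -0.15 and -0.12. H2-D1, H2-T23 and Pdia3 were higher on both, at 0.33, 0.23 and 0.19.

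**Figure D4:**
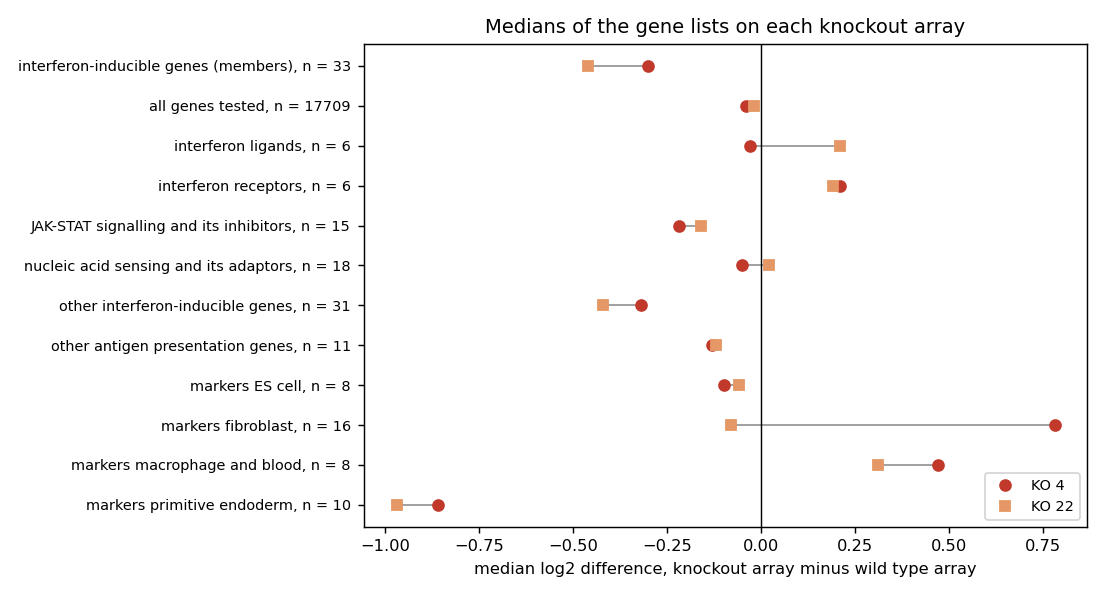
Median log2 difference from wild type on KO 4 (circles) and KO 22 (squares) for the interferon-inducible genes, all genes tested, 6 pathway lists and 4 cell type marker lists, with the number of genes tested. The interferon-inducible genes lie at -0.30 and -0.46 and the other interferon-inducible genes at -0.32 and -0.42, while the fibroblast markers lie at 0.78 on KO 4 and -0.08 on KO 22.

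Markers of other cells moved with these groups to different degrees. In bulk RNA, fewer cells of a type and less RNA per cell cannot be told apart. All 16 fibroblast markers were tested. Their summed level was 70.7 times the 75th percentile on KO 4, 56.5 on KO 22 and 48.7 on wild type. The order of KO 22 and wild type in these sums rests on Tagln. Tagln read 19585 on KO 4, 12006 on KO 22 and 5090 on wild type, a difference of 1.47. Of the 16 markers, 6 lay above wild type on both arrays and 2 below it, and in the others the sides differed. All 16 were higher on KO 4 than on KO 22, by a median of 0.74. The interferon-inducible genes were higher on KO 4 than on KO 22 in 25 of 33 (75.8%, against 47.0% of all genes), by a median of 0.15. Against wild type they lay lower on both arrays, while the fibroblast median was 0.78 on KO 4 and -0.08 on KO 22. The part of feeder RNA in these differences was not tested.

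Most primitive endoderm markers were lower with them. Of 12, 10 were tested and 8 were lower on both knockout arrays, with a median of -0.86 and a summed level of 4.84 on KO 4, 4.30 on KO 22 and 5.44 on wild type. Gata6, Sox17 and Foxa2 lay at -1.17, -1.36 and -1.63. Lrp2 and Amn, which make up most of that sum, were higher on both knockout arrays, at 0.32 and 0.39. Limma called 1 marker, Cubn, lower (against 0.322% of all genes). Afp and Ttr were not well above background on any array. Of 12 markers of macrophages and other blood cells, 8 were tested and limma called 0, with 4 higher and 2 lower on both knockout arrays, a median of 0.23 and a summed level of 2.98, 3.35 and 3.37 on KO 4, KO 22 and wild type. Cd68, which makes up most of that sum, lay at -0.22. Csf1r was at least 2.90-fold and Aif1 at least 2.21-fold higher in the knockout samples by their bounds, and Cd14 lay at 0.91 (limma adjusted p = 0.0715, 0.161 and 0.0971). The defining markers Ptprc, Itgam, Adgre1 and Tyrobp were not well above background on any array. The part of primitive endoderm or blood cells in the results was not tested.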

How the data were processed

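RNA of 3 samples was hybridised to Agilent arrays. The deposited scanner files hold 1 processed intensity for each of 45018 spots, background-subtracted by Agilent's Feature Extraction software, per the file headers. The deposited series matrix was read as the authors' normalized log2 intensities, from its correlation with the scanner values, and the submitters' processing notes name limma. That table's column medians are 5.52 on all arrays; how it was centred stays unknown. Outlier-flagged spots (67 to 86 an array) were left out. Intensities were divided by the array's 75th percentile and log2 transformed. Of 41174 probes, 79.5% were matched to a current gene; a gene was represented by its brightest probe, needing 1 array well above background. Python 3.11.15 with pandas 2.3.3 prepared the tables and limma 3.58.1 in R 4.3.3 (lmFit, eBayes) tested knockout against wild type over 17709 genes, with Benjamini-Hochberg adjustment at 0.05. The fit has 1 residual degree of freedom, 3.03 after moderation, and a prior SD of 0.09; the number of arrays limits the precision.

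Where neither knockout spot, or no wild type spot, was well above background, a bound was set against the lowest signal among probes well above background. Members, lists and tests were chosen with earlier results of these data known, and every member is accounted for. Genes of the pathway lists were named by size, up to 4 a list, with Ifnar1 and any gene called, and 1 gene that the rule names is not reported here; Oasl1, Psme2b and the Oas1 cluster were chosen after values were seen. On simulated data of 17709 genes for the knockout against wild type comparison, limma called 0 of 67 genes changed by 1 on the log2 scale, 46 of 67 changed by 2, 60 of 66 changed by 4, and 10 of 17509 unchanged. Alternatives were quantile normalization, normexp (offset 50, then quantile, without 5 faulty spots), the series matrix values, a filter on all 3 arrays or none, an intensity trend, the mean over a gene's probes, leaving out clustered spots at least 4-fold brighter on 1 array, and leaving out each knockout array.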

Additional observations from a re-analysis of the deposited data

How the results depend on the processing

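The median difference kept its direction in every setting run, between -0.46 (without KO 4) and -0.26 (normexp). The count of members called did not: it was 2 as reported and with quantile normalization, 11 with normexp, 5 with the series matrix values, 4 with a filter on all 3 arrays, 15 with an intensity trend, 1 (Slfn8) with the mean over probes, and 3 with flagged spots kept, which was tried only after seeing the data. Limma called 0 without a filter and 0 without clustered spots, with 15 members at an unadjusted p below 0.05 in each, against 21.6% and 28.7% of all genes. Members at least 2-fold lower on both knockout arrays numbered 1 with normexp (against 0.288% of all genes) and 2 with a filter on all 3 arrays (against 0.799%). At least 2-fold higher on both was 1 without a filter, Ifit3, by a probe not well above background on any array. The share of all genes was not counted there. No member that passed the test changed direction. Leaving out 1 knockout array turned signs for members whose knockout arrays lay on different sides: Isg15 ranged from -0.46 to 0.12, Adar from -0.15 to 0.04, Slfn2 from -0.47 to 0.25, Ifi27 from -0.42 to 0.19, Usp18 from -0.21 to 0.27, Stat2 from -0.15 to 0.01, Ifih1 from -0.03 to 0.79 and Ifi44 from -0.06 to 3.71. They turned for Ifi27 with normexp (0.12), the series matrix values (0.18) and the mean over probes (0.08), for Usp18 with the series matrix values (-0.01) and for Slfn2 with normexp (0.04). The cause was not tested. No paired analysis was possible because the knockout and wild type samples share no replicate number and wild type has 1 array. Signal over background limits 9 of the members not tested and the bounds of Ifi203 and Slfn8.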
